A study of Homo sapiens with 12 samples.

Results

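The genes described here are 42 interferon-stimulated genes, taken from the 58884 genes of the deposited expression table by an exact match of the gene name. They were followed in 12 RNA sequencing libraries from a pair of human liver cancer lines with and without METTL5, a methyltransferase that marks the RNA of the small ribosomal subunit. HCC-LM3 cells come from a hepatocellular carcinoma and metastasise readily in mice. Huh-7 cells also derive from a liver carcinoma, and they still make many liver proteins. The 4 groups, with 3 libraries each, were HCC-LM3 METTL5 knockout (KO), HCC-LM3 wild type (WT), Huh-7 METTL5 KO and Huh-7 WT. KO cells had received a guide RNA against METTL5, and WT cells had received no treatment. The labels name no control guide, no clone and no interferon treatment, so loss of METTL5 and delivery of the guide cannot be told apart. They also do not say that the replicates were separate cultures, so p-values measure no more than the spread among the libraries, and that spread may be technical.

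Type I and type III interferons are secreted when a cell senses viral nucleic acid, and they bind receptors that activate the kinases JAK1 and TYK2. These lead to the assembly of the complex ISGF3, which holds STAT2 and IRF9, and ISGF3 binds the interferon-stimulated response element (ISRE) in the promoters of its target genes. Type II interferon acts mainly through a different element, the gamma-activated site (GAS). The products of the induced genes sense viral RNA, block entry, cleave or sequester viral RNA, starve the virus of nucleotides, or attach the ubiquitin-like protein ISG15 to other proteins. Many of them also have a basal level in cells that have met no interferon.

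METTL5 had 0 counts in all 6 KO libraries, against 169 to 327 counts in the 6 WT libraries. Library totals were 17495275 to 26415496 counts. The libraries differed in composition, with scaling factors (TMM, which balance libraries on the bulk of their genes) of 1.27 to 1.31 in HCC-LM3 KO, 1.33 to 1.51 in HCC-LM3 WT, 0.491 to 0.51 in Huh-7 KO and 1.06 to 1.10 in Huh-7 WT. HCC-LM3 WT replicate 1 stood apart from its group, with a chi-square per gene of 28.8 to 34.9 against the other replicates, where those differed from each other by 4.01 and pairs within the other groups by 2.87 to 16.4. The 10 hepatocyte markers summed to 12.5 to 16.6 TPM (the authors' length-corrected transcript level) in HCC-LM3 KO and 12.3 to 13.9 TPM in HCC-LM3 WT, nearly all of it HNF4A, with ALB at 0 in HCC-LM3 KO and APOB and TTR at 0 in both HCC-LM3 groups. They summed to 12168 to 12310 TPM in Huh-7 KO and 15009 to 17283 TPM in Huh-7 WT. Markers of leukocytes, led by CD68, summed to 51.3 to 58.0 TPM in HCC-LM3 KO, 45.1 to 47.7 TPM in HCC-LM3 WT, 23.3 to 25.1 TPM in Huh-7 KO and 47.1 to 50.8 TPM in Huh-7 WT, and PTPRC, the general leukocyte marker, was at 0 in all groups but Huh-7 WT. The 5 fibroblast markers summed to 7.31 to 9.14 TPM in HCC-LM3 KO, 12.3 to 15.0 TPM in HCC-LM3 WT, 0.53 to 1.26 TPM in Huh-7 KO and 8.53 to 9.26 TPM in Huh-7 WT, with LUM at 0 in both HCC-LM3 groups and DCN at 0 in Huh-7 KO. The 4 endothelial markers summed to 0.77 to 0.79 TPM in HCC-LM3 KO, 0.52 to 1.53 TPM in HCC-LM3 WT, 0.28 to 0.36 TPM in Huh-7 KO and 1.90 to 2.63 TPM in Huh-7 WT, with KDR at 0 throughout. The 3 markers of plasmacytoid dendritic cells, almost all IL3RA, summed to 2.03 to 3.64 TPM in HCC-LM3 KO, 1.25 to 4.61 TPM in HCC-LM3 WT and at most 0.05 TPM in Huh-7. The part of these markers in the results was not tested. In such bulk samples, fewer cells carrying a transcript and less of it per cell cannot be told apart.

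The promoters that carry the response element are shown first, because this element links many of these genes to ISGF3. RefSeq promoter windows on GRCh38.p14, from 250 bases before to 50 bases after each start, were found for 33 of the 42 genes. DHX58, IRF7, USP18, IFIT2, OAS2, OASL, IFITM2, MX2 and TRIM22 had no entry. An ISRE core, searched as GAAA, any 2 bases and GAAA, or on the other strand TTTC, any 2 bases and TTTC, was found in 20 of the 33 windows (60.6%), against 996 of all 27305 windows (3.65%). A GAS core, searched as TTCNNNGAA, which is its own reverse complement, was found in 9 of the 33 windows (27.3%), against 7.88% of all windows. Matches to the ISRE core that lie wholly within the stretches below are in capitals. The stretches are 5′ to 3′ on the gene's own strand. Where the match lies in no annotated exon of the gene, a stretch holds only bases before the RefSeq start that lie outside such exons. Elsewhere it is held to 30 bases around the match. The stretches were picked from genes with a match and do not stand for all genes named in the results.
ISG15, chr1:1013364-1013422, plus strand: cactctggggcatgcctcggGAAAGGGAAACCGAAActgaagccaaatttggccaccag
HERC5, chr4:88456974-88457116, plus strand: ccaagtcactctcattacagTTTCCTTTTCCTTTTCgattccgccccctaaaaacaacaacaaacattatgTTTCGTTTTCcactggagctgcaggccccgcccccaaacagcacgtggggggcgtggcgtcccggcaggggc
OAS3, chr12:112938311-112938351, plus strand: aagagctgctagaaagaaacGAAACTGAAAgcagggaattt
ISG20, chr15:88638937-88638966, plus strand: taacaaactaGAAACTGAAAcagggtcggg
IFITM3, chr11:320884-320913, minus strand: gGAAAAGGAAActgttgaGAAACCGAAAct
IFITM1, chr11:313990-314019, plus strand: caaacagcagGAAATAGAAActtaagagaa
PARP14, chr3:122680800-122680829, plus strand: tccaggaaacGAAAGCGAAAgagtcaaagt
IFI6, chr1:27672219-27672368, minus strand: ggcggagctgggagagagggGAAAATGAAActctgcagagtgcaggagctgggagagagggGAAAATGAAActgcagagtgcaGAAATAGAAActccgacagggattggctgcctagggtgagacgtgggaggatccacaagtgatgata
SAMD9, chr7:93118024-93118135, minus strand: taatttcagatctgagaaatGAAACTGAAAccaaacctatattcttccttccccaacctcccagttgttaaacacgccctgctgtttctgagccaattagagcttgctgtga
BST2, chr19:17405649-17405780, minus strand: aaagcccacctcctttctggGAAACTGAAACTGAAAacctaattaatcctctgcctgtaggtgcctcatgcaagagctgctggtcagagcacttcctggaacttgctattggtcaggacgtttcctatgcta
EPSTI1, chr13:42992272-42992311, minus strand: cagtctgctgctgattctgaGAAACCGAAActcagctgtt
IFIT5, chr10:89414503-89414567, plus strand: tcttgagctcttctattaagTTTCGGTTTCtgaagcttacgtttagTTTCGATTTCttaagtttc
In ISG15 and BST2 a pair of matches shared letters, which gives a run with 3 GAAA blocks, and HERC5 had the same arrangement on the opposite strand. A further match in IFIT5 begins in the last 4 bases of its stretch, runs past the end and is left in lower case. Windows of IRF1, IRF9, OAS1 and IFI35 held a GAS core and no ISRE core, and those of STAT2, UBE2L6, HERC6, SAMHD1, RSAD2, CMPK2, SP100, PARP9 and XAF1 held neither. A match describes these letters only.

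Of the 42 genes, 33 had enough counts to be tested. RSAD2 (viperin, which makes a chain-terminating nucleotide) had 0 counts in all 12 libraries. IFI44 and XAF1 had 1 count in all, IFI44L had 2, OAS2 and CMPK2 had 8 each, DHX58 had 22, TRIM22 had 43 and IFI27 had 69. The genes for interferons themselves were nearly silent, with 1 count for IFNB1, 1 for IFNG, 2 for IFNE and 0 for IFNA1, IFNL1, IFNL2 and IFNL3 over the 12 libraries. On the length-corrected TPM scale the levels ran over a wide range. In HCC-LM3 the membrane proteins led, with IFITM3 at 1319 ± 24.8 TPM in KO and 1140.5 ± 25.2 TPM in WT (SD, n = 3 each), followed by BST2, IFITM2 and ISG15 in both groups. In Huh-7 ISG15 led, at 116 ± 0.848 TPM in KO and 74.4 ± 4.40 TPM in WT, followed by IFITM3 at 59.6 ± 2.11 TPM in KO and 69.1 ± 5.99 TPM in WT.

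**Figure D1:**
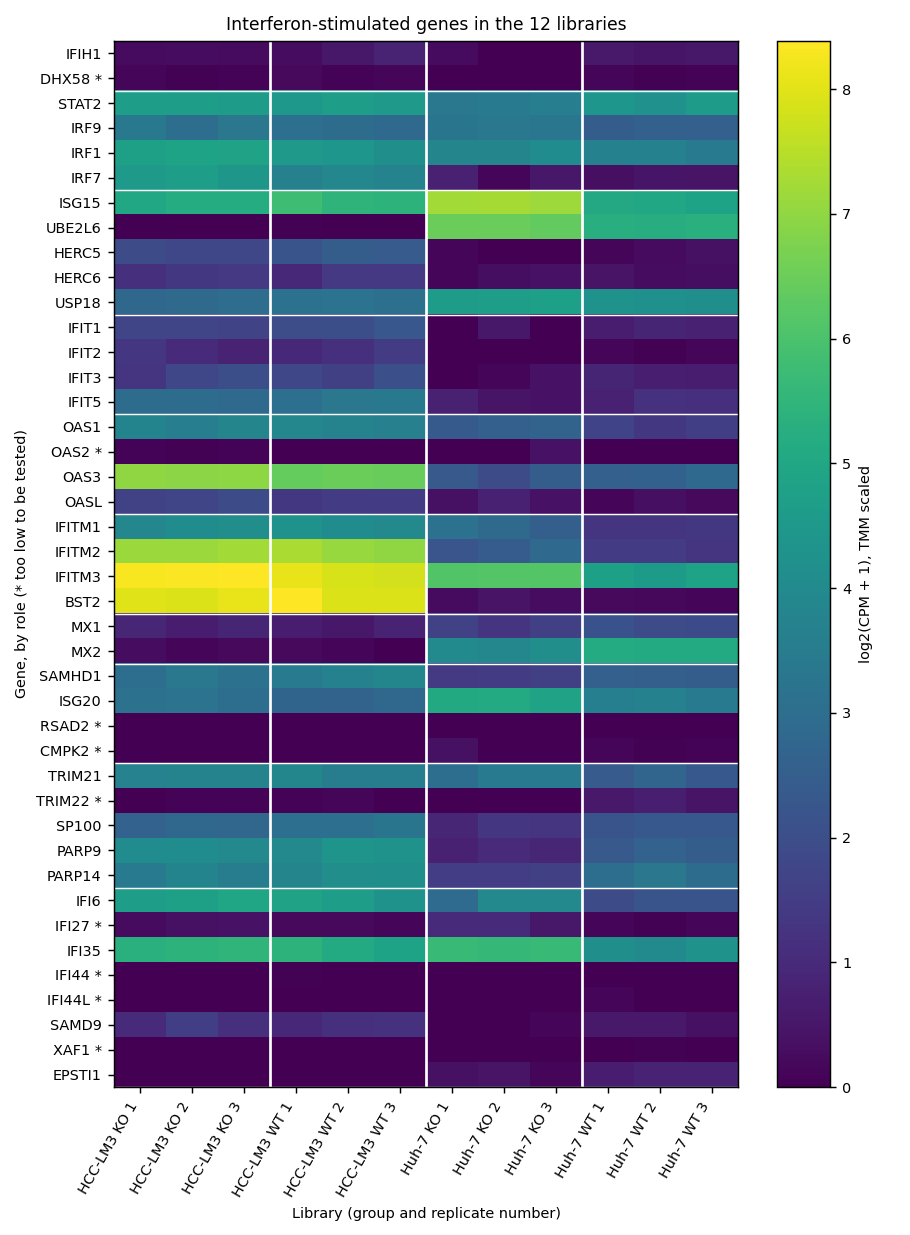
Level of each of the 42 genes (rows, grouped by role) in each of the 12 libraries (columns), as log2(CPM + 1), where CPM is the count scaled to library size after TMM, and a star marks the 9 genes too low to be tested. BST2 is bright in HCC-LM3 and near 0 in Huh-7, UBE2L6 and MX2 are the other way round, and RSAD2, IFI44, IFI44L and XAF1 are dark throughout.

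The first comparison asked what METTL5 KO did in HCC-LM3. Among the 33 tested genes 5 were higher in KO (15.2%) and 5 were lower (15.2%), where 14% of all 16537 genes tested were higher and 12.9% were lower, so the shares were near the background. The median log2 fold change was 0 over the 33 genes and 0 over all genes. The higher genes were IRF7, OAS3, IRF1, ISG20 and IFITM3, and the lower ones HERC5, SAMHD1, PARP14, SP100 and ISG15. All tests are from edgeR's quasi-likelihood model with Benjamini-Hochberg adjustment over all genes tested, called at an adjusted p under 0.05.

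Among the transcription factors, IRF7 and IRF1 rose. IRF7, which drives transcription of the interferon alpha genes, had 21.9, 24.97 and 20.5 CPM in HCC-LM3 KO, against 11.6, 13.9 and 12.3 CPM in HCC-LM3 WT. All KO libraries lay above all WT libraries, and the log2 fold change was 0.83 ± 0.14 (SE), or 1.78-fold (adjusted p = 4.01e-05). IRF1, a factor best known for the response to interferon gamma, had 26.3, 28.1 and 27.6 CPM in KO, against 21.8, 20.2 and 17.1 CPM in WT. The groups did not overlap, at a log2 fold change of 0.47 ± 0.12 (adjusted p = 0.00285). The ISGF3 members were not called, with STAT2 at 24.1 ± 0.774 CPM in KO and 22.6 ± 1.63 CPM in WT, and IRF9 at 8.51 ± 1.21 CPM in KO and 6.89 ± 0.532 CPM in WT (SD, n = 3 each). Their log2 fold changes were 0.09 ± 0.11 and 0.31 ± 0.15 (SE), with overlapping groups.

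In the ISG15 cycle the modifier and its ligase fell. ISG15 had 32.001, 35.5 and 35.8 CPM in HCC-LM3 KO, against 53.7, 42.6 and 42.1 CPM in HCC-LM3 WT. Each KO library was below each WT library, at a log2 fold change of -0.42 ± 0.10 (adjusted p = 0.00162). HERC5, the main human ligase that attaches ISG15 to new proteins, had 2.88, 2.41 and 2.42 CPM in KO, against 3.55, 4.52 and 4.28 CPM in WT. It fell by 0.68 on the log2 scale (SE 0.22, adjusted p = 0.0223), with no overlap. USP18, the protease that removes ISG15 and also restrains the type I receptor, had 5.96, 6.41 and 6.99 CPM in KO, against 7.83, 8.07 and 7.51 CPM in WT, and did not pass the test (log2 fold change -0.27 ± 0.13, adjusted p = 0.106). HERC6, a relative of HERC5 that is the ISG15 ligase in mice, was not called, at 1.45 ± 0.231 CPM in KO and 1.40 ± 0.393 CPM in WT. UBE2L6, the enzyme that carries ISG15 to the ligase, had 0 counts in HCC-LM3 KO and 1 count in HCC-LM3 WT, so no change could be measured.

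Of the effectors that act on RNA or nucleotides, OAS3 and ISG20 rose and SAMHD1 fell. OAS3, which makes the oligoadenylates that switch on RNase L, had 128, 120.5 and 125 CPM in HCC-LM3 KO, against 84.1, 88.9 and 84.8 CPM in HCC-LM3 WT. The groups were well apart, at a log2 fold change of 0.53 ± 0.09 or 1.45-fold (adjusted p = 7.40e-05). Its relatives OAS1, at 12.3 ± 1.05 CPM in KO and 12.5 ± 0.990 CPM in WT, and OASL, at 2.44 ± 0.419 CPM in KO and 1.70 ± 0.102 CPM in WT, were not called. ISG20, an exonuclease that degrades viral RNA, had 7.86, 8.07 and 7.26 CPM in KO, against 5.45, 5.33 and 6.11 CPM in WT. It was higher in each KO library than in any WT library, at a log2 fold change of 0.46 ± 0.13 (adjusted p = 0.00975). SAMHD1, which breaks down deoxynucleotides, had 7.09, 9.35 and 7.74 CPM in KO, against 9.89, 11.99 and 13.3 CPM in WT. The highest KO library stayed below the lowest WT library, at a log2 fold change of -0.55 ± 0.15 (adjusted p = 0.00568).

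IFITM3, which blocks fusion of viruses in endosomes, had 315, 322 and 331 CPM in HCC-LM3 KO, against 277, 235 and 226 CPM in HCC-LM3 WT. It rose without overlap, at a log2 fold change of 0.39 ± 0.09 (adjusted p = 0.00217). The neighbouring genes IFITM1, at 15.6 ± 1.53 CPM in KO and 16.2 ± 1.94 CPM in WT, and IFITM2, at 142 ± 4.50 CPM in KO and 139.8 ± 16.3 CPM in WT, were not called. The 3 IFITM transcripts are near copies, and their deposited counts were not whole in any of the 12 libraries, so how reads were divided among them is uncertain. Counts of IRF9 were likewise not whole in any of the 12 libraries, and those of IRF1 and USP18 carried decimals in 10 of them. BST2 (tetherin, which holds budding virus at the cell surface) was at 256 ± 16.6 CPM in KO and 277 ± 49.7 CPM in WT, with a log2 fold change of -0.11 ± 0.10.

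A pair of nuclear proteins fell. SP100, a scaffold of PML nuclear bodies, had 5.28, 6.17 and 5.80 CPM in HCC-LM3 KO, against 7.32, 7.39 and 8.61 CPM in HCC-LM3 WT, at a log2 fold change of -0.44 ± 0.16 (adjusted p = 0.0385). PARP14, which adds single ADP-ribose units to proteins, had 9.85, 12.9 and 10.7 CPM in KO, against 13.2, 16.6 and 17.1 CPM in WT, at a log2 fold change of -0.49 ± 0.14 (adjusted p = 0.00842). Neither gene's groups overlapped. PARP9, its frequent partner, had 15.3 ± 0.915 CPM in KO and 17.5 ± 2.79 CPM in WT and was not called. None of the 4 IFIT genes, whose proteins bind foreign RNA ends, passed the test, nor did either MX GTPase, the RNA sensor IFIH1, TRIM21, IFI6, IFI35, SAMD9 or EPSTI1. The log2 fold changes of the IFIT genes were -0.47 for IFIT1, -0.26 for IFIT2, -0.14 for IFIT3 and -0.37 for IFIT5. IFIH1 had the largest uncalled decrease among genes with more than 1 count in each group, at 0.178, 0.207 and 0.179 CPM in KO and 0.222, 0.444 and 0.733 CPM in WT (log2 fold change -1.29 ± 0.52, adjusted p = 0.0615).

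The 5 higher genes were also the higher genes when libraries were put on a common scale for gene length and GC content (length and GC offsets), at smaller changes of 0.50 for IRF7, 0.37 for IRF1, 0.35 for ISG20, 0.34 for OAS3 and 0.18 for IFITM3 on the log2 scale. With these offsets 10.2% of all genes were higher and 8.83% lower. With length offsets alone 5 genes were higher and 5 lower, against 15.8% and 13.8% of all genes, and with library totals alone 4 were higher and 9 lower, against 7.25% and 20.7%. With the offsets ISG15 stood at -0.71 and SAMHD1 at -0.39, BST2 at -0.29 and USP18 at -0.35 passed the test, and HERC5 at -0.49, PARP14 at -0.29 and SP100 at -0.21 did not. Without HCC-LM3 WT replicate 1, the library that stood apart, 6 genes were higher and 8 lower, with IFI35, IFIH1, IFIT5 and PARP9 added, against 18.7% and 17.3% of all genes in that refit. Without HCC-LM3 WT replicate 3, 5 were higher and ISG15 was the 1 lower gene, against 7.82% and 8.28% of all genes. Without HCC-LM3 KO replicate 1, 5 were higher and the 2 lower genes were ISG15 and HERC5, against 9.18% and 8.84%. Each of these refits tested 35 of the 42 genes. HERC5 lost its call under 6 alternatives and SP100 under 10 (of 22 refits and an adjusted p under 0.01). ISG20 lost it with library totals and without HCC-LM3 WT replicate 2. IRF7, IRF1, OAS3, IFITM3 and ISG15 kept their call under all 22 refits and at an adjusted p under 0.01.

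**Figure D2:**
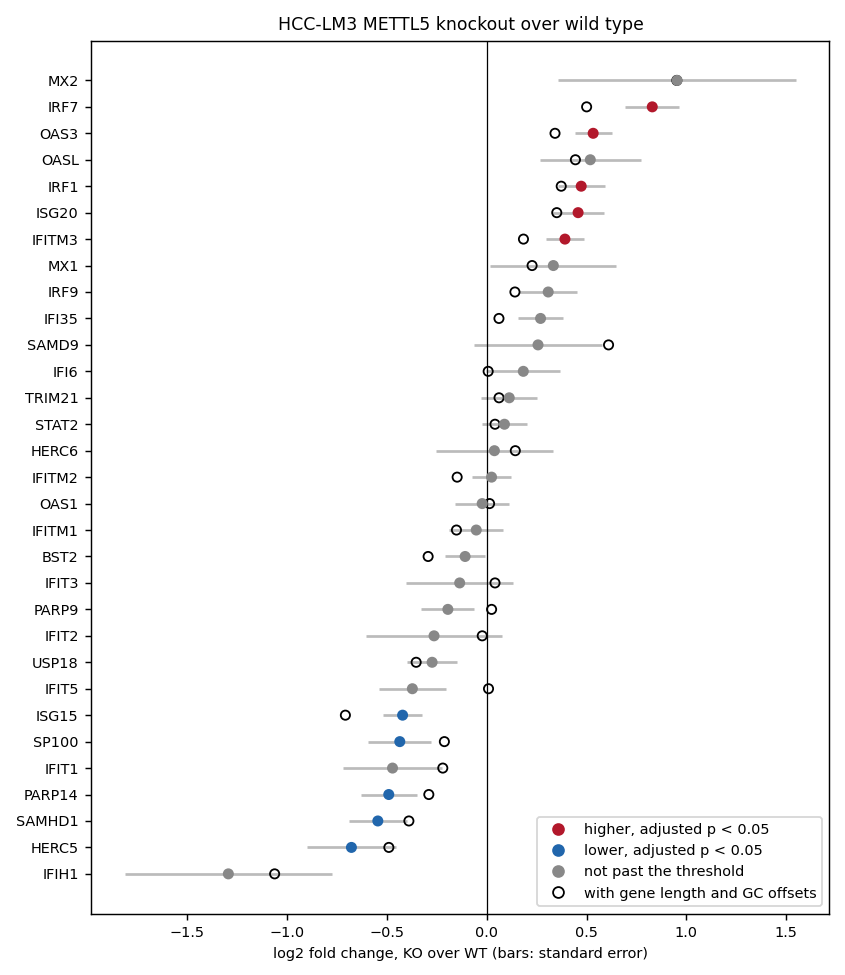
Log2 fold change of HCC-LM3 KO over HCC-LM3 WT for 31 of the tested genes (UBE2L6 and EPSTI1, with 1 and 0 counts in this line, are left out), with bars for the standard error, filled points from the fit without offsets and open points with length and GC offsets. The 5 higher genes are red and lie between 0.39 and 0.83, and the 5 lower genes are blue and lie between -0.68 and -0.42.

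In Huh-7 more of the genes were called, and the direction ran with gene length. At TMM scaling 14 of the 33 genes were higher in KO (42.4%) and 14 were lower (42.4%), where 31.7% of all genes tested were higher and 43.2% were lower. The median log2 fold change was -0.39 over the 33 genes and -0.30 over all genes. Among all genes the median was 1.20 for those under 1500 bases, 0.17 for those from 1500 up to 3000 bases and -1.44 for those of 3000 bases and over. Of the interferon-stimulated genes, 7 of the 8 in the shortest class were higher and none lower, 6 of the 9 in the middle class were higher and 2 lower, and 1 of the 16 in the longest class was higher and 12 lower. Of all genes in the shortest class 60.8% were higher and 12.9% lower. The shares of all genes were 41.2% and 30.3% in the middle class, and 11.1% and 67% in the longest. With length offsets alone 12 of the 33 genes were higher and 3 lower, against 35.8% and 31.8% of all genes. With length and GC offsets 7 were higher and 3 lower, against 30% and 28.4% of all genes. With library totals alone 6 were higher and 19 lower, against 12.1% and 65.3% of all genes, where the median of all genes was -1.40. Whether the length trend arose in the cells or in the libraries was not tested.

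**Figure D3:**
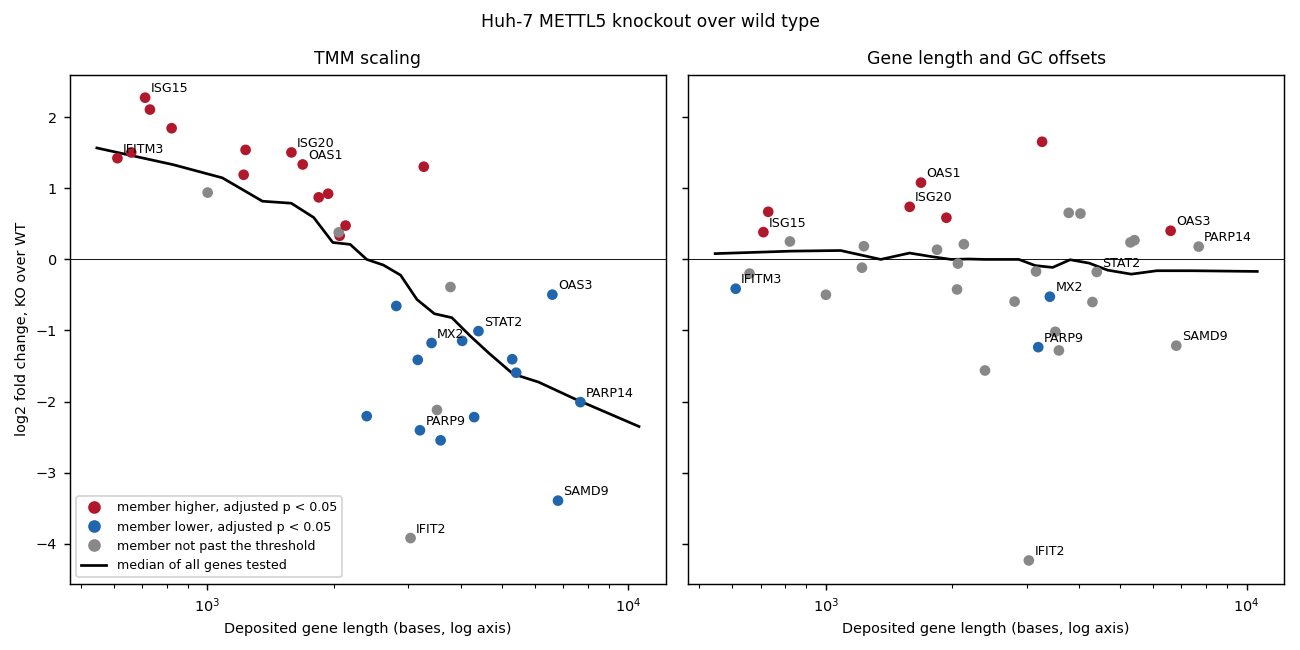
Log2 fold change of Huh-7 KO over Huh-7 WT for the 33 tested genes against deposited gene length, at TMM scaling (left) and with length and GC offsets (right), with the running median of all genes tested as a black line. On the left the members follow the falling line, short ISG15 at 2.28 and long PARP14 at -2.01. On the right 16 lie above 0 and 17 below, with OAS1 at 1.08 and MX2 at -0.52. The point for IFIT2, with 0 counts in all KO libraries, is a fitted value and no measured fold.

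ISG15, IFITM1 and ISG20 were higher in Huh-7 KO, and PARP9 and MX2 lower, under all 22 alternatives tried, the offsets and library totals included. ISG15 had 150.1, 152 and 142 CPM in Huh-7 KO, against 32.4, 30.6 and 28.5 CPM in Huh-7 WT. The groups were far apart, at 4.85-fold, a log2 fold change of 2.28 ± 0.10 (adjusted p = 3.90e-19) that was 0.38 with the offsets. IFITM1, a relative of IFITM3 that acts at the cell surface, had 7.69, 6.52 and 4.84 CPM in KO, against 1.46, 1.40 and 1.57 CPM in WT. Its log2 fold change was 2.11 ± 0.21 (adjusted p = 6.24e-11), and 0.67 with the offsets. ISG20 had 33.03, 33.8 and 27.8 CPM in KO, against 11.3, 11.7 and 10.3 CPM in WT. It stood at 1.51 ± 0.13 on the log2 scale (adjusted p = 1.94e-12), and at 0.74 with the offsets.

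PARP9, which works with the ubiquitin ligase DTX3L, had 0.690, 1.05 and 0.879 CPM in Huh-7 KO, against 4.10, 5.21 and 4.51 CPM in Huh-7 WT. All KO libraries were below all WT libraries, at a log2 fold change of -2.40 ± 0.27 (adjusted p = 9.60e-10), or -1.24 with the offsets. The exons of PARP9 overlap those of DTX3L on the opposite strand, as do exons of IRF1, IFIT2, OAS1, MX1, SAMHD1, SP100, ISG15 and IFITM3 those of other genes. The sources used here do not say whether counting used strand, so reads of such pairs cannot be told apart. MX2, a GTPase known for restricting HIV, had 14.9, 13.6 and 16.8 CPM in KO, against 34.5, 34.1 and 33.98 CPM in WT. It fell to a fraction of the WT level, at -1.18 ± 0.15 on the log2 scale (adjusted p = 9.64e-09), or -0.52 with the offsets. MX1, which blocks influenza virus, had 2.17, 1.40 and 1.98 CPM in KO, against 3.33, 2.76 and 2.68 CPM in WT. Its call (log2 fold change -0.66 ± 0.30, adjusted p = 0.0463) was lost under 18 alternatives (of 22 refits and an adjusted p under 0.01).

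Further genes were higher at TMM scaling and not with the offsets. IFI6, which restrains apoptosis, had 6.70, 14.3 and 14.4 CPM in Huh-7 KO, against 2.82, 3.50 and 3.49 CPM in Huh-7 WT. IFI35, a partner of the protein NMI, had 50.6, 47.4 and 50.4 CPM in KO, against 17.02, 15.3 and 18.8 CPM in WT. Their log2 fold changes were 1.85 and 1.54 (adjusted p = 6.13e-06 and 3.96e-13), and 0.25 and 0.19 with the offsets (adjusted p = 0.415 and 0.0892). IFITM2 had 3.65, 4.43 and 6.37 CPM in KO, against 1.83, 1.75 and 1.42 CPM in WT, and IFITM3 had 68.5, 69.2 and 69.3 CPM in KO, against 26.4, 22.9 and 27.9 CPM in WT. Both were higher at TMM scaling, by 1.51 and 1.42 on the log2 scale. With the offsets IFITM2 stood at -0.20 and did not pass, and IFITM3 was lower in KO, at -0.41 (adjusted p = 3.99e-05).

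UBE2L6 had 90.1, 87.6 and 82.8 CPM in Huh-7 KO, against 38.4, 36.3 and 39.4 CPM in Huh-7 WT. USP18 had 23.8, 24.6 and 25.7 CPM in KO, against 18.8, 17.4 and 16.97 CPM in WT. In both genes all KO libraries were higher, at log2 fold changes of 1.19 and 0.48 (adjusted p = 7.90e-12 and 0.000772), and neither passed with the offsets, at -0.12 and 0.21. The ligase HERC5 had 1 count in Huh-7 KO and 12 counts in Huh-7 WT, a WT to KO ratio of 4.77 at equal scaling (exact 95% counting interval 0.706 to 204). Among the ISG15 cycle genes examined here, this line thus showed the modifier, carrier enzyme and protease, and almost no HERC5. Other genes of the cycle were not examined. HERC6 had 0.220 ± 0.116 CPM in KO and 0.279 ± 0.0769 CPM in WT and was not called.

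OAS1 had 4.24, 5.01 and 5.38 CPM in Huh-7 KO, against 2.23, 1.58 and 1.92 CPM in Huh-7 WT. It was higher by 1.34 ± 0.21 on the log2 scale (adjusted p = 5.58e-07), and by 1.08 with the offsets. With library totals alone OAS1 stood at 0.23 and did not pass (adjusted p = 0.266), and its mean TPM was 1.03 ± 0.168 in KO and 1.52 ± 0.0872 in WT. OASL, an OAS relative that makes no oligoadenylate, stood at 1.30 ± 0.60 (adjusted p = 0.0478) on 0.442 ± 0.224 CPM in KO and 0.175 ± 0.0790 CPM in WT. Before scaling its counts were the same, at 3, 6 and 3 in KO and 3, 6 and 3 in WT, so the call rests on the scaling. With library totals alone OASL stood at 0.21 (adjusted p = 0.753). OASL lost its call under 8 alternatives (of 21 refits and an adjusted p under 0.01). OAS3 had 4.04, 2.80 and 4.51 CPM in KO, against 4.90, 5.08 and 6.23 CPM in WT. It was lower at TMM scaling (-0.50 ± 0.17, adjusted p = 0.00918) and higher with the offsets (0.40, adjusted p = 0.0263), so its direction in this line depends on the scaling. TRIM21, a receptor for antibody-coated virus in the cytosol, had 7.20, 9.67 and 9.78 CPM in KO, against 4.35, 5.60 and 4.001 CPM in WT. It was higher by 0.92 at TMM (adjusted p = 1.83e-05) and 0.59 with the offsets, and did not pass with library totals alone, at -0.19.

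Of the transcription factors, STAT2 had 9.37, 10.02 and 10.99 CPM in Huh-7 KO, against 19.98, 17.99 and 23.2 CPM in Huh-7 WT. IRF9, its partner in ISGF3, had 8.48, 9.32 and 8.90 CPM in KO, against 4.57, 4.99 and 5.01 CPM in WT. At TMM scaling STAT2 was lower, at -1.01 ± 0.13 (adjusted p = 3.10e-08), and IRF9 higher, at 0.87 ± 0.17 (adjusted p = 2.48e-05). With the offsets neither passed, at -0.18 and 0.14. IRF1 was higher at 14.1 ± 1.71 CPM in KO and 11.1 ± 1.27 CPM in WT (log2 fold change 0.33 ± 0.14, adjusted p = 0.0301). This call was lost under 8 alternatives (of 22 refits and an adjusted p under 0.01). IRF7 was near the floor, at 0.415 ± 0.288 CPM in KO and 0.335 ± 0.0710 CPM in WT, and was not called.

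The remaining lower genes were long or rare. SAMHD1 had 1.68, 1.75 and 1.98 CPM in Huh-7 KO, against 4.90, 4.77 and 4.61 CPM in Huh-7 WT. SP100 had 0.887, 1.51 and 1.43 CPM in KO, against 3.55, 3.98 and 3.95 CPM in WT, and PARP14 had 1.87, 1.86 and 1.98 CPM in KO, against 7.17, 8.97 and 6.89 CPM in WT. All 3 were lower in each KO library, at log2 fold changes of -1.40, -1.59 and -2.01 (adjusted p = 1.82e-06, 1.21e-06 and 5.33e-10). With the offsets they stood at 0.24, 0.27 and 0.18, and none passed.

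The IFIT genes, IFIH1, SAMD9 and EPSTI1 were at the low end of detection in Huh-7. IFIT1 had 0, 4 and 0 counts in Huh-7 KO, against 15, 19 and 14 counts in Huh-7 WT, and IFIT3 had 0, 1 and 3 counts in KO, against 22, 14 and 12 counts in WT. Both were called lower, at -2.22 ± 0.67 and -2.21 ± 0.69 on the log2 scale (adjusted p = 0.00344 and 0.00486), as was IFIT5, at 0.456 ± 0.203 CPM in KO and 1.06 ± 0.323 CPM in WT (-1.15 ± 0.42, adjusted p = 0.0141). IFIT2 had 0 counts in KO and 5 in WT. IFIH1 had 2 counts in KO and 31 in WT, a WT to KO ratio of 6.16 at equal scaling (exact 95% counting interval 1.57 to 53.2), and SAMD9, an antiviral protein that blocks translation, had 1 count in KO and 30 in WT, a ratio of 11.9 (1.98 to 487). Such intervals cover counting error only. EPSTI1 had 3, 3 and 1 counts in KO, against 15, 17 and 15 counts in WT. Its call (adjusted p = 0.0491) was lost under 19 alternatives (of 21 refits and an adjusted p under 0.01). With 0 counts in HCC-LM3, EPSTI1 was tested only through its level in Huh-7 WT, so it could be called only lower in KO. IFIH1 passed the count filter only in WT libraries and needed those of Huh-7, so it too could be called only lower. The call of IFIH1 was lost under 6 alternatives (of 20 refits and an adjusted p under 0.01). The calls of EPSTI1 and IFIH1 among the 14 lower genes are therefore no support. None of the genes named so far in this paragraph passed with the offsets. TRIM22, with 0 counts in KO and 34 in WT, was at least 1.48-fold higher in Huh-7 WT against a floor of 3 counts per library.

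The deposited TPM values put most of the higher genes on the other side. Of the 14 genes higher in Huh-7 KO by counts, 11 had a lower mean TPM in KO, where the median log2 ratio of TPM over all genes was -1.71. ISG20 was at 12.2 ± 1.06 TPM in Huh-7 KO and 16.1 ± 0.255 TPM in Huh-7 WT, and UBE2L6 at 26.7 ± 0.651 TPM in KO and 36.5 ± 0.869 TPM in WT (SD, n = 3 each). ISG15, IFITM1 and IFI6 were the 3 that were higher on both scales, and all 14 lower genes were lower on both. In HCC-LM3 the 5 higher and 5 lower genes lay on the same side by TPM as by counts, where the median log2 ratio of all genes was -0.15.

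**Figure D4:**
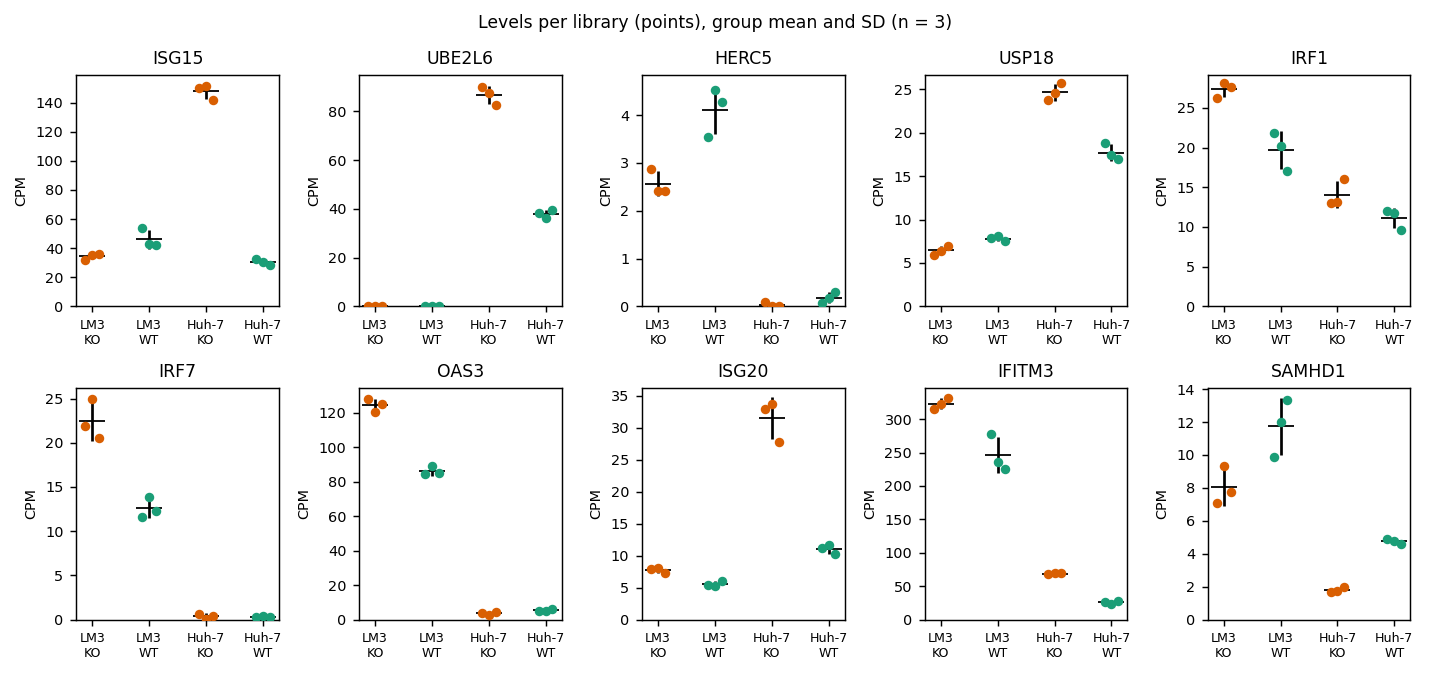
Levels of 10 genes in each library, in CPM after TMM scaling (points), with the mean and SD of the 3 libraries of each group (LM3 stands for HCC-LM3). KO is below WT for ISG15 in HCC-LM3 and above it in Huh-7, HERC5 is near 0 in Huh-7 and UBE2L6 near 0 in HCC-LM3.

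The difference between the lines was tested as the KO effect in HCC-LM3 minus that in Huh-7. It was positive for 11 of the 33 genes and negative for 11 (33.3% each), where 37.7% of all genes were positive and 23.9% negative. With the offsets 4 were positive and 6 negative, where 23.8% of all genes were positive and 24.7% negative. With length offsets alone 4 were positive and 8 negative, against 24.6% and 27.2% of all genes, and with library totals 14 and 4, against 57.5% and 9.52%. ISG15 differed at both scalings, lower in HCC-LM3 KO and higher in Huh-7 KO, with a difference of -2.70 ± 0.14 on the log2 scale (adjusted p = 6.92e-17) and of -1.09 with the offsets. IFITM1 also differed at both, by -2.16 ± 0.25 (adjusted p = 3.39e-09) and -0.82. PARP9 differed in the other direction, by 2.21 ± 0.31 (adjusted p = 1.55e-07) and 1.26 with the offsets, being lower in Huh-7 KO and not called in HCC-LM3. MX2 differed by 2.13 ± 0.62 (adjusted p = 0.00345), but had only 0 to 7 counts in each HCC-LM3 library. These 4 kept their call under all 21 alternatives tried. OAS3, IFITM3 and SAMHD1 changed the sign of the difference with the offsets, to -0.06, 0.60 and -0.63.

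The WT lines differed in most of the genes. Of the 33 tested genes 25 were higher in HCC-LM3 WT (75.8%) and 6 were lower (18.2%), where 41.8% of all genes were higher and 41% lower. IRF7, BST2, HERC5, HERC6, IFIT2, OASL and SAMD9 had at most 13 counts in a Huh-7 WT library. They were tested only through their levels in HCC-LM3, so a higher call was nearly the only one open to them. Their calls add no support to the share. The median log2 fold change, HCC-LM3 WT over Huh-7 WT, was 1.41 over the 33 genes and 0.03 over all genes. With length and GC offsets 24 were higher and 7 lower, against 39.7% and 42.8% of all genes. With length offsets alone 25 were higher and 6 lower, against 40.9% and 42.3%, and with library totals 26 and 6, against 51% and 32.8%. By role, the 4 IFIT genes, the 3 tested OAS genes, the 4 IFITM and BST2 membrane proteins and the 4 tested TRIM, SP100 and PARP genes were all higher in HCC-LM3 WT (SP100 not past the test with the offsets), and both MX GTPases were lower.

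BST2 had 10538, 9484 and 8121 counts in HCC-LM3 WT, against 4, 3 and 2 counts in Huh-7 WT. It had a mean of 594 ± 34.9 TPM in HCC-LM3 WT and 0.160 ± 0.0265 TPM in Huh-7 WT, and its log2 fold change was 11.01 ± 0.21 (adjusted p = 8.38e-31). IFITM2 had 158, 136 and 126 CPM in HCC-LM3 WT, against 1.83, 1.75 and 1.42 CPM in Huh-7 WT, at a log2 fold change of 6.37 ± 0.15 (adjusted p = 1.63e-28). IRF7, HERC5 and OAS3 were higher in HCC-LM3 WT by 5.24, 4.53 and 4.0 on the log2 scale (adjusted p = 2.07e-20, 7.75e-14 and 9.96e-26), without overlap. Of the other transcription factors, IRF1 was at 19.7 ± 2.39 CPM in HCC-LM3 WT and 11.1 ± 1.27 CPM in Huh-7 WT, IRF9 was at 6.89 ± 0.532 CPM in HCC-LM3 WT and 4.86 ± 0.248 CPM in Huh-7 WT, and STAT2 was at 22.6 ± 1.63 CPM in HCC-LM3 WT and 20.4 ± 2.63 CPM in Huh-7 WT (SD, n = 3 each). IRF1 and IRF9 passed the test and STAT2 did not.

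UBE2L6 was the opposite case. It had 1, 0 and 0 counts in HCC-LM3 WT, against 1050, 829 and 778 counts in Huh-7 WT, a Huh-7 to HCC-LM3 ratio of 3897 (exact 95% counting interval 699 to 153990). MX2 had 5, 3 and 0 counts in HCC-LM3 WT, against 942, 778 and 671 counts in Huh-7 WT, at a log2 fold change of -8.68 ± 0.26 (adjusted p = 2.14e-25). EPSTI1 had 0 counts in HCC-LM3 WT, against 15, 17 and 15 counts in Huh-7 WT. That is at least 7.75-fold lower in HCC-LM3 WT against a floor of 3 counts per library. EPSTI1, UBE2L6 and MX2 were tested only through their levels in Huh-7, so their calls among the 6 lower genes could have no other direction. MX1, USP18 and ISG20 were lower in HCC-LM3 WT by smaller amounts, at -2.28, -1.18 and -0.98 on the log2 scale. In HCC-LM3, then, HERC5 was present and UBE2L6 was not detected beyond 1 count, and in Huh-7 UBE2L6 was present and HERC5 was at 12 counts over the WT libraries.

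**Figure D5:**
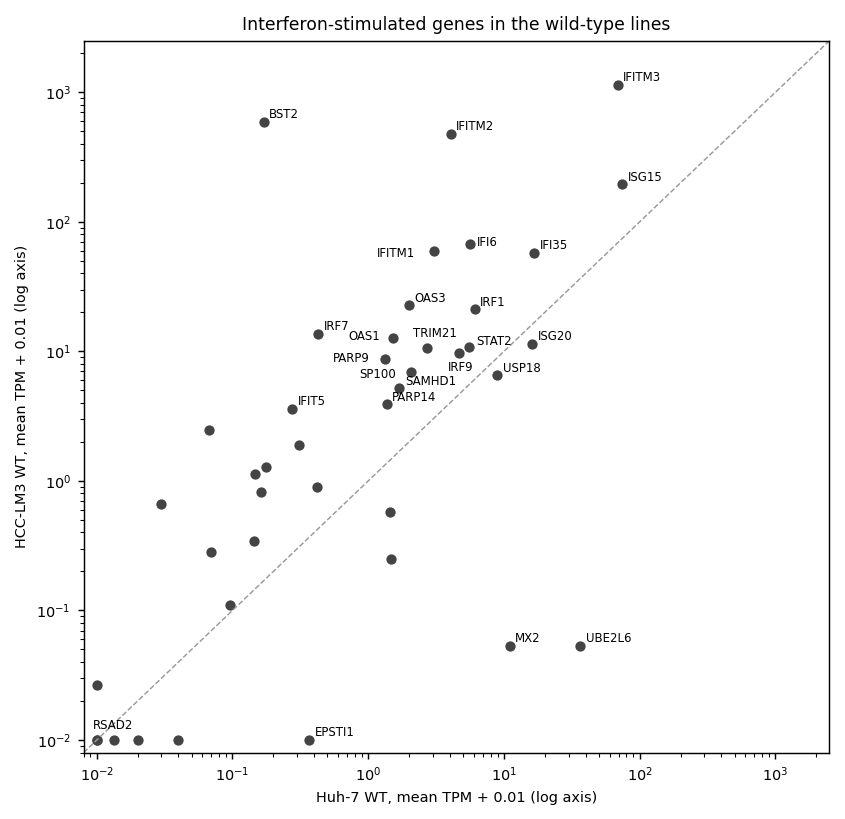
Mean TPM of each of the 42 genes in HCC-LM3 WT (vertical) against Huh-7 WT (horizontal), both log axes after adding 0.01, with a dashed line at equal levels and names for the more abundant genes. Most points lie above the line, BST2 and IFITM2 farthest, and UBE2L6, MX2 and EPSTI1 lie far below it.

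Genes of interferon production and signalling outside the 42 were compared in the same fit. In HCC-LM3, 6 of the 30 tested were higher in KO and 5 lower (20% and 16.7%, beside 14% and 12.9% of all genes). The higher ones with the largest changes were SOCS3 at 0.72 ± 0.15, a feedback inhibitor of cytokine receptors, the adaptor TICAM1 at 0.49 ± 0.11, the kinase TYK2 at 0.43 ± 0.10, STAT3 at 0.39 ± 0.09 and IRF3 at 0.37 ± 0.10 (log2 fold change and SE, adjusted p = 0.000618, 0.000885, 0.00205, 0.00115 and 0.00547). The lower ones were TBK1 at -0.74, the kinase that activates IRF3, PIAS1 at -0.55, IFNGR1 at -0.42, PTPN2 at -0.40 and JAK1 at -0.38. With the offsets 4 were higher and 2 lower (13.3% and 6.67%, beside 10.2% and 8.83% of all genes). Of those named SOCS3, STAT3 and JAK1 still passed. In Huh-7, 8 were higher in KO and 14 lower at TMM scaling (26.7% and 46.7%, beside 31.7% and 43.2% of all genes). With the offsets 7 were higher and 6 lower (23.3% and 20%, beside 30% and 28.4% of all genes).

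JAK1 and the receptor subunit IFNAR1 were lower in Huh-7 KO at both scalings, at -2.18 and -2.67 by TMM and -0.77 and -0.68 with the offsets, as was the ubiquitin ligase TRIM25, at -1.65 and -1.43. TBK1 was lower at TMM scaling, at -1.83 (adjusted p = 2.20e-08), and did not pass with the offsets, at -0.38 (adjusted p = 0.158). Leaving aside genes whose mean lay under 1 CPM, the largest increases in Huh-7 KO at TMM scaling were in IFNGR2 at 1.31, IRF3 at 1.24, PTPN6 at 0.99, IL10RB at 0.88 and SOCS3 at 0.88. With the offsets they stood at 0.52, 0.13, 0.44, 1.62 and 0.51, and IRF3 did not pass (adjusted p = 0.0814). With library totals alone none of the 5 passed.

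A list of 42 further interferon-induced genes had 33 tested. In HCC-LM3, 8 were higher in KO and 4 lower (24.2% and 12.1%, beside 14% and 12.9% of all genes), led by HELZ2 at 0.81 ± 0.16, LGALS3BP at 0.72 ± 0.11, APOL1 at 0.64 ± 0.10, MOV10 at 0.53 ± 0.09 and APOL6 at 0.48 ± 0.13 on the higher side (adjusted p = 0.00219, 9.69e-06, 1.15e-05, 7.28e-05 and 0.00715) and NT5C3A at -0.44, EIF2AK2 at -0.39, TRIM56 at -0.31 and TRIM14 at -0.30 on the lower side. HELZ2, LGALS3BP, APOL1 and MOV10 kept their call under all 22 alternatives. With the offsets 6 were higher and 3 lower (18.2% and 9.09%, beside 10.2% and 8.83% of all genes). In Huh-7, 20 of the 33 were lower in KO and 5 higher at TMM scaling (60.6% and 15.2%, beside 43.2% and 31.7% of all genes). With the offsets 15 were lower and 6 higher (45.5% and 18.2%, beside 28.4% and 30% of all genes). The median of the 33 with the offsets was -0.44, and that of all genes 0.00. The lower ones were led by TRIM56 at -3.42 by TMM and -2.08 with the offsets, TRANK1 at -3.21 and -1.53, the antiviral RNA-binding protein ZC3HAV1 at -2.90 and -1.33, the kinase EIF2AK2 (PKR) at -2.78 and -0.93, and the RNA editing enzyme ADAR at -2.12 and -0.79. GBP2, a guanylate-binding protein, led the higher ones, at 1.57 and 2.82, followed at TMM scaling by IFI30 at 1.47, C19orf66 at 1.33, CNP at 0.67 and PARP12 at 0.42. IFI30 did not pass with the offsets (adjusted p = 0.0511), C19orf66 did not pass with library totals alone, and CNP and PARP12 were lower there, at -0.45 and -0.69.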

How the data were processed

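RNA sequencing of 12 libraries in 4 groups of 3 was used, with groups and replicate numbers taken from the sample labels. Per the file headers, the authors deposited 1 table that gives each gene's expected count and TPM in each library. The deposited expected counts are not normalized, and 7.49% to 13.3% of a library's values carry decimals. TPM, the length-corrected level computed by the authors, was used to describe levels only. The submitters' processing notes name Bowtie 0.12.2 and 2 mouse builds, mm8 and mm9, although the identifiers are human Ensembl ones. For the counting tool, strand setting, annotation and human build, the sources used here give nothing.

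Rounded counts entered edgeR 4.0.16 under R 4.3.3 (filterByExpr, TMM scaling, robust quasi-likelihood fit with 1 mean per group over all 12 libraries and 8 residual degrees of freedom). Two-sided p-values were adjusted by Benjamini-Hochberg over 16537 genes and called under 0.05. CPM values are TMM-scaled. Standard errors were derived from the F statistic. With 3 libraries against 3, totals of 17495275 to 26415496 counts set the precision. The fit was run on simulated data with 200 genes changed by 1 on the log2 scale in KO. It recovered 93.5% of them in HCC-LM3 and 80% in Huh-7, with 11 false calls in each. The simulated KO had no trend with gene length, so it does not test the fit under the trend seen in Huh-7. Coordinates, exons and GC content came from GENCODE 29 on GRCh38, where 99.5% of the identifiers were found. Promoter sequences came from RefSeq.

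The alternatives were DESeq2 1.42.0 size factors and Wald test, limma-voom (limma 3.58.1), library totals alone, offsets for gene length or gene length and GC content, no filter or at least 1 CPM in 3 libraries, each line alone, the replicate number as a block, an adjusted p under 0.01 and leaving out each library. Replicate numbers were not taken as pairs. No per-sample column was left unmatched. All 42 genes are accounted for. Every gene called in a KO comparison is named. Values per library, per group or as summed counts are given for up to 12 called genes by size of change. For genes whose KO effects differ between the lines, values are given where they were called, and not always in the other line. From the other lists up to 5 called genes per direction with a mean of at least 1 CPM are named, and 1 gene of these lists is not reported here. Members, lists and tests were chosen with earlier results of these data known.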

Additional observations from a re-analysis of the deposited data

Results flagged for a closer look

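For 22 of the 33 tested genes the KO effect differed between the lines, by edgeR's quasi-likelihood test of the difference itself (HCC-LM3 effect minus Huh-7 effect, adjusted p under 0.05). On the log2 scale the difference was positive for SAMD9 at 3.65, PARP9 at 2.21, MX2 at 2.13, IFIT3 at 2.07, IFIT1 at 1.75, PARP14 at 1.52, SP100 at 1.16, STAT2 at 1.10, OAS3 at 1.03, MX1 at 0.99 and SAMHD1 at 0.86. It was negative for ISG15 at -2.70, IFITM1 at -2.16, IFI6 at -1.66, IFITM2 at -1.48, OAS1 at -1.36, IFI35 at -1.27, ISG20 at -1.05, IFITM3 at -1.03, TRIM21 at -0.81, USP18 at -0.75 and IRF9 at -0.57. Among all genes 37.7% were positive and 23.9% negative in the same test. In Huh-7 KO, SAMD9 had 0, 0 and 1 counts, IFIT3 0, 1 and 3 and IFIT1 0, 4 and 0, so these differences rest on values near the floor. The difference lost its call under 17 alternatives for MX1, 13 for IFIT1, 8 for IRF9 and 6 for IFIT3 (of 21 refits and an adjusted p under 0.01). With length and GC offsets 2 of the 11 positive differences (PARP9 and MX2) and 5 of the 11 negative ones (ISG15, IFITM1, OAS1, TRIM21 and USP18) passed again with the same sign.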

How the results depend on the processing

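Counts of called genes moved by over 1.5 times in these cases. In HCC-LM3 KO the 5 lower genes became 9 with library totals alone and 3 at an adjusted p under 0.01 (20.7% and 7.52% of all genes). In Huh-7 KO the 14 higher genes became 6 with library totals and 7 with length and GC offsets, and the 14 lower ones became 3 with length offsets, 3 with length and GC offsets and 9 by the DESeq2 Wald test (34.5% of all genes). For the difference between the lines the 11 positive genes became 7 with DESeq2 size factors, 7 by the DESeq2 Wald test (29.6% and 29.2% of all genes) and 4 with either kind of offset, and the 11 negative ones became 4 with library totals and 6 with length and GC offsets. Leaving out each library gave 4 to 6 higher and 1 to 8 lower genes in HCC-LM3, where 7.82% to 18.7% of all genes were higher and 8.14% to 17.3% lower. It gave 13 to 15 and 10 to 15 in Huh-7 (29.3% to 32.6% and 40.6% to 42.6% of all genes), 9 to 12 and 10 to 12 for the difference (34.4% to 36.2% and 22.4% to 24.2%), and 25 to 26 and 6 to 7 between the WT lines (39.6% to 42.4% and 39.1% to 41.0%). IFI27 was called higher and TRIM22 lower in Huh-7 KO in several of these refits. With a library left out the count filter was looser, and more genes were tested. IFI27 had 10, 9 and 4 counts in Huh-7 KO, and TRIM22 had 13, 14 and 7 counts in Huh-7 WT. Each was admitted by the group where it was high, so these calls add no support. The cause of each shift was not tested.

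Some called genes changed sign. In Huh-7 KO, with library totals alone, IRF9 stood at -0.24, IRF1 at -0.78, USP18 at -0.63 and TRIM21 at -0.19. With length offsets STAT2 stood at 0.087 and OAS3 at 1.12. With length and GC offsets IRF1 stood at -0.059, UBE2L6 at -0.12, IFITM2 at -0.20, IFITM3 at -0.41, IFIT5 at 0.65, OAS3 at 0.40, SAMHD1 at 0.24, SP100 at 0.27 and PARP14 at 0.18. For the difference, library totals gave 0.39 for IRF9, 0.20 for USP18 and 0.15 for TRIM21. Length offsets gave -0.53 for OAS3, 0.28 for IFITM3, -0.43 for SAMHD1, -0.16 for SP100 and -0.19 for PARP14. Length and GC offsets gave 0.0048 for IRF9, -0.061 for OAS3, 0.051 for IFITM2, 0.60 for IFITM3, -0.63 for SAMHD1, -0.48 for SP100 and -0.47 for PARP14. Between the WT lines STAT2, not called at TMM scaling (0.15), stood at -0.24 with length and GC offsets and was called there (adjusted p = 0.0166).

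Whether replicate numbers pair the libraries cannot be decided from 3 libraries per group. Same-numbered libraries deviated with correlations of -0.105, 0.213 and -0.385 (HCC-LM3) and -0.0183, -0.0362 and 0.0801 (Huh-7). For different numbers the correlations ran from -0.374 to 0.488 in HCC-LM3 and from -0.093 to 0.101 in Huh-7. With the replicate block, 5 genes were higher and 4 lower in HCC-LM3 KO, 13 and 12 in Huh-7 KO, and 10 and 11 differed between the lines (12.8% and 11.3%, 31.2% and 42.9%, and 37% and 23.2% of all genes). The block gave no value for the WT lines, and fitting each line alone gave none for the WT lines or the difference. Depth limited the genes with few counts, such as IFIH1, SAMD9 and HERC5 in Huh-7.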
